A study of Arabidopsis thaliana with 18 samples.

Results

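Roots of Arabidopsis thaliana (thale cress) grown with bisphenol F (BPF) were compared with roots grown with bisphenol E (BPE), 3 libraries against 3 of the 18 libraries in the series. Each compound is a pair of phenol rings joined through 1 carbon. In BPE that bridging carbon carries 1 methyl group, and in BPF it is a plain methylene. Members were chosen by the sample titles, and genes were tested where their mean over the 18 libraries was at least 1 FPKM (fragments per kilobase of transcript, scaled to a library's mapped fragments), which held for 19484 of 33602 loci. All seedlings were wild type (WT) and grew for 14 days on agar. The BPF plates held BPF, the BPE plates held BPE, and the 3 control libraries used here beside them came from plates with less than 0.01% DMSO (dimethyl sulfoxide, the solvent) and no bisphenol. Plates were made at 1, 3 or 10 mg/L of a compound, per the treatment protocol, and which dose a given library had is not stated. BPF and BPE are therefore not known to be matched in dose, and each difference given here is one between labelled libraries. The title of the series gives oxidation and reduction in roots under bisphenols as its subject. The labels do not say whether the 3 replicates of a group came from separate plates, so the p-values rest on the spread between libraries alone, and that spread may be technical.

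The gene groups in which these libraries differed have well-known roles in roots. When phosphate is short, the transcription factor PHR1 binds its target promoters, and roots switch on phosphate transporters, secreted phosphatases, enzymes that replace phospholipids with galactolipids and sulfolipids, and the non-coding RNAs IPS1 and At4, which hold back microRNA399. Root hairs, the tubular outgrowths of epidermal cells that take up water and ions, are built by a programme under the factors RHD6 and RSL4. Abscisic acid is the hormone of water shortage. It acts through type 2C protein phosphatases and factors that bind ACGTG elements, and it induces protective late embryogenesis proteins. Plants detoxify foreign phenols by oxidation, by linkage to glutathione or glucose, and by transport into the vacuole.

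Recovered totals ran from 15.86 to 22.15 M fragments (M, mega) over the 18 libraries, from 19.33 to 22.15 M in BPE and from 16.11 to 21.77 M in BPF. At these depths 1 FPKM of a transcript of 1.5 kb stands for 23.8 to 33.2 fragments, so values well below 1 FPKM rest on few fragments. In a principal component analysis of the 9 control, BPE and BPF libraries, the first component held 51.4% of the variance and placed BPE at 60.25, 56.82 and 32.65, control at -16.80, -3.90 and -42.47, and BPF at -16.03, -51.08 and -19.45. On this component BPE replicate 3 lay nearest to the other groups within BPE, and BPF replicate 2 farthest from BPE. The second component held 26.3% of the variance. It placed control at 38.36, 28.17 and 29.81, BPE at -2.97, -3.19 and -4.21, and BPF at -5.64, -27.34 and -52.99. Control and BPF thus overlapped on the first component and lay apart on the second, where BPF was widely spread. Defining markers of root cells were present: the summed level of the 4 root hair markers was 49.4, 44.6 and 64.5 FPKM in BPE and 163, 162 and 121 FPKM in BPF, and 3 of the 4 were called higher in BPF (COBL9, EXPA7 and PRP3; not RHD6). The 4 xylem markers summed to 65.2, 116 and 134 FPKM in BPE and 161, 164 and 112 FPKM in BPF, with 0 called. The 4 root meristem markers summed to 40.8, 33.9 and 36.1 FPKM in BPE and 30.6, 21.8 and 21.6 FPKM in BPF, with 0 called. Of 13 genes of shoot meristem, leaf polarity and stomata, 2 reached the filter, 3 were at 0 in all 9 libraries, and the sum was below 16 FPKM in each. Whole roots were extracted, so fewer cells of a type and less RNA per cell cannot be told apart, and the part of these markers in the results below was not tested.

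Between BPF and BPE, 3108 of the 19484 genes (16.0%) passed an adjusted p of 0.05, 1294 (6.64%) higher in BPF and 1814 (9.31%) lower in BPF. That lower calls outnumbered higher ones depended on the setting, since with median scaling 1778 were higher and 1750 lower, and in the 6 libraries alone 2115 were higher and 1951 lower. The median difference over all tested genes was -0.04 on the log2(FPKM + 1) scale, on which 1 stands for a doubling of FPKM + 1 and the change of low genes is understated. On that scale 1153 of the calls differed at least 2-fold and 187 at least 4-fold. Where a gene is named below, its 3 values per group are given in replicate order, followed by the log2 difference, BPF minus BPE, its standard error (SE) and its p from limma adjusted over all tested genes. Against the same 3 control libraries the fit called 2783 genes for BPE (14.3%; 9.08% higher and 5.2% lower) and 270 for BPF (1.39%). At an unadjusted limma p below 0.05, 6172 genes passed for BPE against control and 3500 for BPF against control. For 2292 of the 3108 genes (73.7%) the control mean lay between the BPE and BPF means, and for 2176 (70.0%) BPE lay farther from control than BPF did. These genes were selected for a gap between BPE and BPF, which by itself favours a control mean inside it. Neither share is given for all tested genes, so how far selection made them cannot be told. Genes called higher in BPF had a median difference from control of -0.66 in BPE and 0.27 in BPF, and those called lower in BPF one of 0.47 in BPE and -0.20 in BPF. The count rested on single libraries. Without BPE replicate 1 it was 224, without BPE replicate 2 it was 284, without BPF replicate 2 it was 50 and without BPF replicate 3 it was 1908, against 2565 without BPE replicate 3 and 2797 without BPF replicate 1. All 3108 genes kept the sign of their difference in each of these 6 fits. They were selected by the full fit, which shares libraries with each of these, so a reversal was unlikely and the kept sign does not test the calls.

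**Figure D1:**
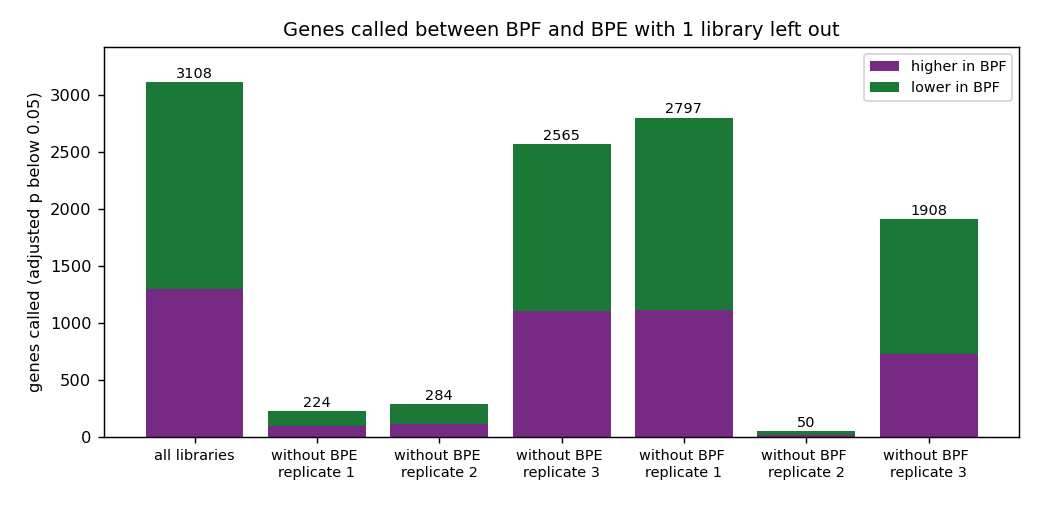
Number of genes called between BPF and BPE (adjusted p below 0.05, limma), higher in BPF (purple) or lower in BPF (green), with all libraries and with 1 of the 6 libraries left out. The count falls from 3108 to 224, 284 and 50 without BPE replicate 1, BPE replicate 2 and BPF replicate 2.

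The gene lists did not move alike. Lists for phosphate starvation, sulfate, root hairs, xyloglucan enzymes and cell division had more members called higher in BPF than lower, and the abscisic acid and UDP-glucosyltransferase lists had more called lower. The other lists are given by their counts below, each to be read beside 6.64% of all tested genes called higher and 9.31% called lower. List counts from a fit without 1 library are to be read beside that fit's calls over all tested genes. These were 99 higher and 125 lower without BPE replicate 1, 116 and 168 without BPE replicate 2, and 19 and 31 without BPF replicate 2. They were 1101 and 1464 without BPE replicate 3, 1109 and 1688 without BPF replicate 1, and 725 and 1183 without BPF replicate 3.

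**Figure D2:**
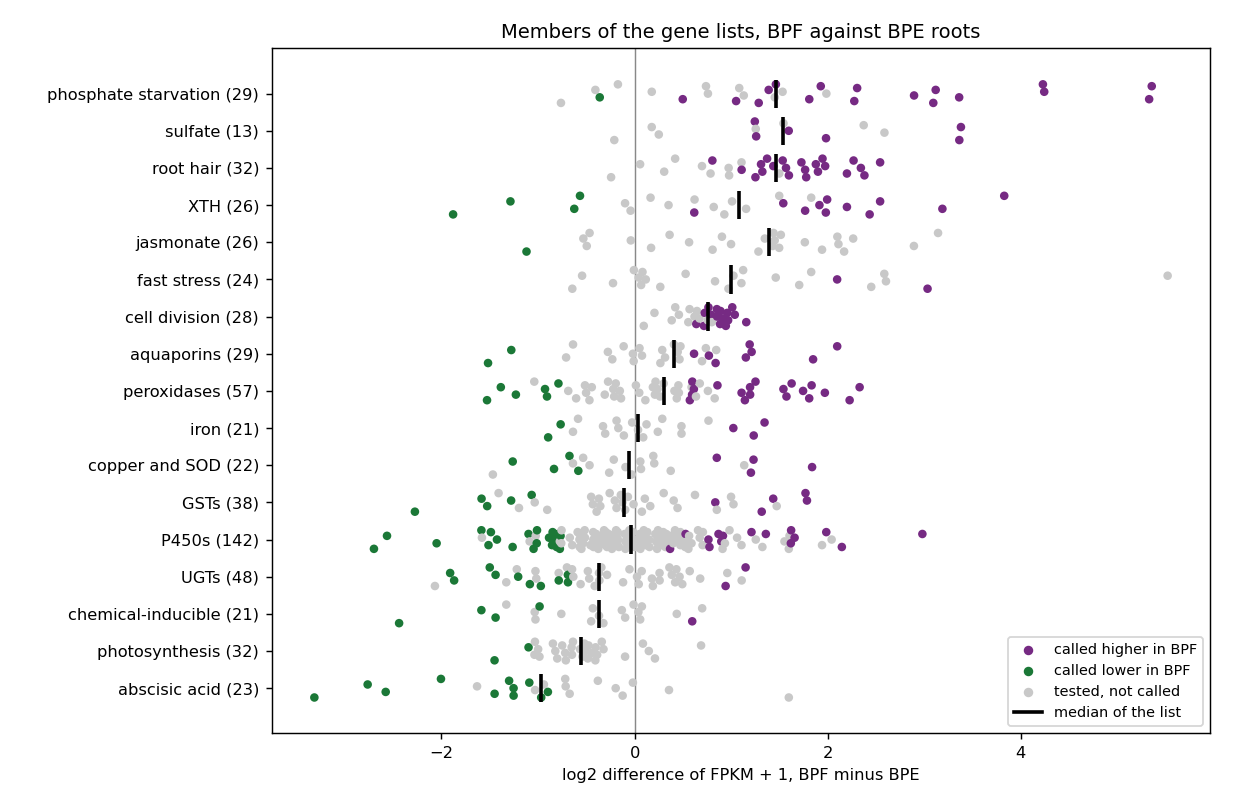
Log2 difference of FPKM + 1, BPF minus BPE, for the tested members of 17 gene lists (number tested in brackets); purple points were called higher in BPF, green points lower, grey points were not called, and the black bar is the median of the list. The phosphate, sulfate and root hair medians lie near 1.5 and the abscisic acid median at -0.97.

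Phosphate starvation genes were higher in BPF than in BPE roots. All 29 members of the list were tested, 17 were called higher in BPF and 1 lower, and the median difference was 1.46. The list's summed level was 3538, 3056 and 3922 FPKM in control, 928, 975 and 1805 FPKM in BPE and 3323, 5196 and 4171 FPKM in BPF, so that BPE stood below the other groups. Against control the median of the list was -1.21 in BPE and 0.47 in BPF. Of the 29, 7 were called lower and 1 higher in BPE than in control, and 0 were called for BPF against control. In the fits without BPE replicate 1, BPE replicate 2 and BPF replicate 2, in that order, 1, 2 and 0 members were called higher.

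Promoters of 3 of these genes and of 1 abscisic acid gene are shown because they carry the sequence elements by which the lists' known regulators bind. Each line gives the 250 bases before the annotated gene start, 5′ to 3′ on the gene's strand, from RefSeq's assembly TAIR10.1. Capitals mark GNATATNC, the PHR1 element, in the first 3 and ACGTG, the core of the abscisic acid response element, in the last, on either strand.
SPX3 (chr2:18606160-18606409, + strand): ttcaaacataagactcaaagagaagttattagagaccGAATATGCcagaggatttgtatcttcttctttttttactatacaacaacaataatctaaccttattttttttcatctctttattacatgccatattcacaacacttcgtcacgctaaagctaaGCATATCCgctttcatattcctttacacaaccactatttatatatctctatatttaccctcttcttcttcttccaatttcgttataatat
PS2 (chr1:27466349-27466598, - strand): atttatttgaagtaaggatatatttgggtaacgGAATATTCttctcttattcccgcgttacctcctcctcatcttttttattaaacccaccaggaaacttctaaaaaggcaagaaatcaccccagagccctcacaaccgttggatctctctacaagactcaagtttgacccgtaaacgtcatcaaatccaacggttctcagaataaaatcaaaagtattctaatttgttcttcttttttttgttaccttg
At4 (AT5G03545, chr5:894332-894581, + strand): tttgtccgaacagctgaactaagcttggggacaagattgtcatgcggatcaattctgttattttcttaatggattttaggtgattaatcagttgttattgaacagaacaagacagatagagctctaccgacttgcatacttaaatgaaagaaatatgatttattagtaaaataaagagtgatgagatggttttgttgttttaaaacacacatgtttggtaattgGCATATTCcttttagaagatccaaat
LEA4-5 (chr5:2090431-2090680, - strand): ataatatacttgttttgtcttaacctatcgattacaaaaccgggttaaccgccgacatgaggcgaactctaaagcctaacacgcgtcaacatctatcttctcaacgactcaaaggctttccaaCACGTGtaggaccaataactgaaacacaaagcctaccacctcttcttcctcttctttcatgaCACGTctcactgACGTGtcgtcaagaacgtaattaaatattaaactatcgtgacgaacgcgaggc
GNATATNC was present in 1498 of 27443 promoters of protein-coding genes of this length (5.459%), in 8 of the 29 on the phosphate list and in 6 of the 18 called ones. ACGTG was present in 22.913% of all promoters, in 17 of the 31 on the abscisic acid list and in 6 of its 11 called members. A window of 250 bases does not hold elements farther out, and a match is a description of the sequence.

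The 2 non-coding RNAs of the response stood at high levels in control. IPS1 (AT3G09922) was at 2.53, 3.23 and 58.9 FPKM in BPE and 316, 641 and 300.2 FPKM in BPF, against 378, 299 and 592 FPKM in control, a log2 difference between BPF and BPE of 5.36, SE 1.37, adjusted p = 0.022. At4, whose promoter holds GCATATTC close to its start, was at 162, 250.5 and 919.9 FPKM in BPE and 1332, 1812 and 1881 FPKM in BPF, a difference of 2.30, SE 0.74, adjusted p = 0.0475. In both RNAs the BPE and BPF libraries did not overlap, BPF lay near control, and BPE replicate 3 was the highest of its group. PS2 (AT1G73010), a pyrophosphatase, was at 3.38, 4.31 and 15.9 FPKM in BPE and 168, 518 and 289.9 FPKM in BPF, a difference of 5.33, SE 1.01, adjusted p = 0.00988, with control at 99.2, 80.5 and 181 FPKM. SPX3, an inositol-phosphate sensor that restrains PHR1, was at 0.443, 0.506 and 2.85 FPKM in BPE and 31.9, 48.8 and 33.6 FPKM in BPF, a difference of 4.24, SE 1.08, adjusted p = 0.0215. Each BPF library held more of these transcripts than any BPE library, and the spread among BPE libraries came mostly from replicate 3. PHR1 itself, the 1 member lower in BPF and named after its values were seen, was at 40.7, 44.4 and 46.2 FPKM in BPE and 39, 30.8 and 32.2 FPKM in BPF, a difference of -0.36, SE 0.11, adjusted p = 0.0398. Its call was lost in 8 of 16 alternative settings, among them median scaling, the 6 libraries alone and 5 of the 6 fits that left out a library, with adjusted p up to 0.180.

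Among the other genes named by the rule, the root phosphate transporter PHT1;1 was at 70.8, 61.9 and 105 FPKM in BPE and 183, 261 and 177 FPKM in BPF, a difference of 1.39, SE 0.25, adjusted p = 0.0087. PHT1;2 was at 24.9, 22.4 and 39.7 FPKM in BPE and 82.5, 151 and 82.8 FPKM in BPF, a difference of 1.81, SE 0.35, adjusted p = 0.0102. Groups did not overlap for either. Their coding sequences are close to identical, so the split of reads between them is uncertain. MGD3 (listed as MGDC), which makes galactolipids, was at 0.395, 0.778 and 2.78 FPKM in BPE and 21.3, 74.5 and 35.7 FPKM in BPF, a difference of 4.23, SE 1.09, adjusted p = 0.0223. PEPC1 (AT1G17710), a phosphatase of phosphocholine and phosphoethanolamine, fell outside the list because its list name, PECP1, was not matched. It was at 0.861, 0.168 and 2.0 FPKM in BPE and 48.3, 108 and 63.8 FPKM in BPF, a difference of 5.23, SE 1.16, adjusted p = 0.0143. For both enzymes the highest BPE library, replicate 3, stayed below the lowest BPF library by a wide margin. The carnitine transporter gene OCT1 (AT1G73220), also outside the list, was at 0.30, 0.694 and 2.08 FPKM in BPE and 31.7, 49.2 and 40.8 FPKM in BPF, a difference of 4.43, SE 1.13, adjusted p = 0.0219, and likewise did not overlap.

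**Figure D3:**
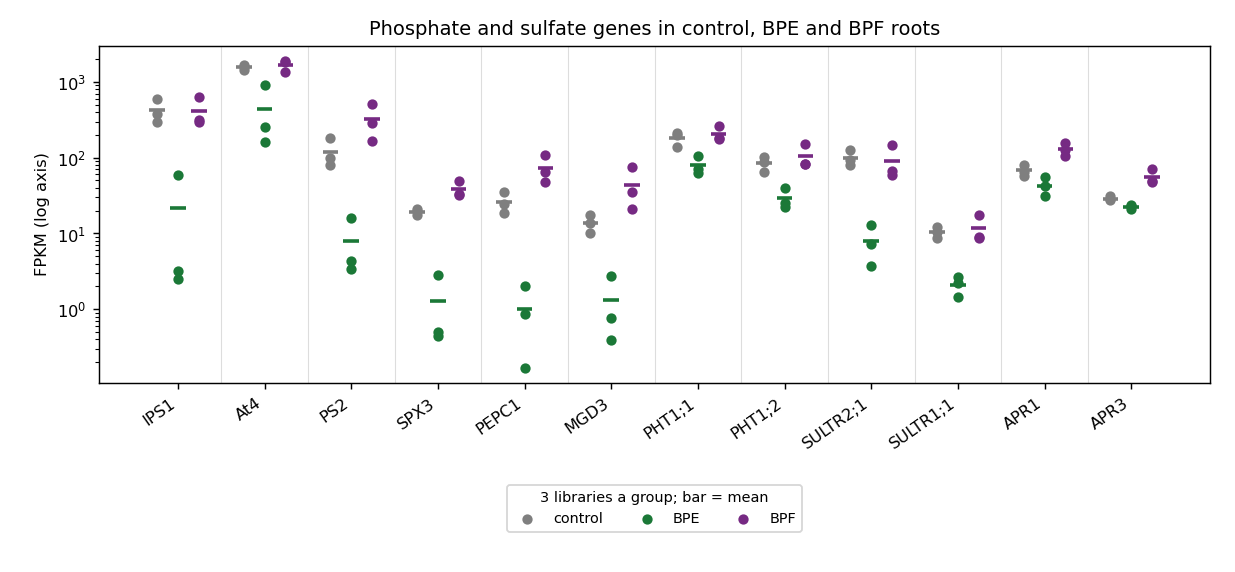
FPKM (log axis) of 8 phosphate and 4 sulfate genes in each control (grey), BPE (green) and BPF (purple) library; points are libraries and bars are means of 3. In all 12 genes the 3 BPE libraries lie below the 3 BPF libraries.

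Sulfate genes that passed the test were higher in BPF as well. All 13 members of the list were tested, 6 were called higher in BPF and 0 lower, with a median difference of 1.54. The vascular sulfate transporter SULTR2;1 was at 3.71, 7.35 and 13.1 FPKM in BPE, 59.6, 146 and 67.1 FPKM in BPF and 93.3, 78.9 and 126 FPKM in control, a difference between BPF and BPE of 3.36, SE 0.74, adjusted p = 0.0141. The high-affinity uptake transporter SULTR1;1 was at 2.22, 1.45 and 2.63 FPKM in BPE and 8.91, 17.3 and 8.7 FPKM in BPF, a difference of 1.98, SE 0.42, adjusted p = 0.0121. Both transporters were low in all 3 BPE libraries, while BPF overlapped control. SULTR1;2, the other uptake transporter, was at 46.3, 65.2 and 81.7 FPKM in BPE and 45.7, 55.3 and 62.6 FPKM in BPF, and was not called (-0.21, SE 0.29, adjusted p = 0.638). Of the reductases that form sulfite, APR3 was at 20.7, 23.3 and 23.6 FPKM in BPE and 49.6, 70.0 and 47.1 FPKM in BPF (1.25, SE 0.27, adjusted p = 0.0129), and APR1 at 31.4, 42 and 55.2 FPKM in BPE and 106, 158 and 126 FPKM in BPF (1.60, SE 0.42, adjusted p = 0.0244). Here BPF lay above control as well, which held 30.9, 28.2 and 27.7 FPKM of APR3 and 64.8, 57.5 and 81.1 FPKM of APR1. BPF replicate 2 was the highest library for each of the 4 called genes named here. Without BPE replicate 1, BPE replicate 2 or BPF replicate 2, 0 members were called higher.

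Nitrogen, iron and copper genes differed one by one. Of 19 tested nitrate and ammonium genes 1 was called higher and 1 lower. AMT1;2, an ammonium transporter, was at 8.83, 10.9 and 13.5 FPKM in BPE and 25.3, 38.2 and 32.3 FPKM in BPF, a difference of 1.45, SE 0.26, adjusted p = 0.00853. The MYB-like regulator HRS1 was at 94.7, 60.2 and 47.7 FPKM in BPE and 34.8, 36.8 and 31.2 FPKM in BPF, a difference of -0.90, SE 0.30, adjusted p = 0.0499. The nitrate transporter NRT2:1 was at 4.24, 2.77 and 3.29 FPKM in BPE and 25.3, 81 and 4.46 FPKM in BPF, did not overlap between the groups and was not called (2.37, SE 0.81, adjusted p = 0.0575). Its 3 control libraries, at 83.1, 28.8 and 106 FPKM, lay far above BPE. Without BPE replicate 1 or BPE replicate 2, AMT1;2 was still called, and without BPF replicate 2, 0 of the nitrogen genes were.

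Of 21 tested iron genes, 3 were called higher in BPF and 2 lower, with a median difference of 0.04. The 3 higher ones act in iron acquisition. The ferric reductase FRO2 was at 0.147, 0.257 and 0.28 FPKM in BPE, 2.54, 3.08 and 1.1 FPKM in BPF and 3.55, 3.18 and 3.55 FPKM in control, a difference between BPF and BPE of 1.35, SE 0.25, adjusted p = 0.00936. The iron transporter IRT1 was at 0.144, 0 and 0 FPKM in BPE and 2.05, 1.54 and 0.921 FPKM in BPF, a difference of 1.23, SE 0.31, adjusted p = 0.0203, and IRT2, outside the naming rule, at 1.62, 0.634 and 0.779 FPKM in BPE and 4.43, 2.27 and 2.6 FPKM in BPF (1.02, SE 0.28, adjusted p = 0.0261). These levels are low, and IRT1 was listed at 0 in 2 BPE libraries. Control held 3.04, 2.21 and 4.23 FPKM of IRT1. For FRO2 and IRT1 each BPF library lay below each control library, and neither gene was called for BPF against control. BTS, the ubiquitin ligase that limits the iron response, was lower in BPF, at 39.9, 46.7 and 34.8 FPKM in BPE and 29.2, 19.1 and 16.9 FPKM in BPF (-0.89, SE 0.24, adjusted p = 0.0257), as was the vacuolar metal transporter MTPA2 (-0.77, SE 0.23, adjusted p = 0.036), also outside the naming rule. With BPE replicate 1, BPE replicate 2 or BPF replicate 2 left out, 1, 1 and 0 iron genes were called higher and 0 lower. Without BPF replicate 1, 1 were called higher, and without BPF replicate 3, 0 lower.

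Of 22 tested copper and superoxide dismutase genes, 4 were called higher in BPF and 4 lower. FRO4, a copper reductase, stood between 0.0237 and 0.0698 FPKM in control, at 0.157, 2.03 and 4.27 FPKM in BPE and at 8.77, 11.9 and 5.7 FPKM in BPF, a difference between BPF and BPE of 1.84, SE 0.38, adjusted p = 0.0115. The copper chaperone CCH was at 90.4, 89.5 and 84.1 FPKM in control, 137, 236 and 261 FPKM in BPE and 361, 384 and 361 FPKM in BPF (0.85, SE 0.23, adjusted p = 0.0249). In both genes BPE lay between control and BPF, and BPE replicate 1 was the library nearest to control. The copper transporter COPT2 (1.20, SE 0.38, adjusted p = 0.043), whose groups overlapped, and the metal transporter ZIP2 (1.23, SE 0.34, adjusted p = 0.029), named after their values were seen, were the other higher members. Lower in BPF were the copper-exporting ATPase HMA5, at 38.6, 42 and 30.0 FPKM in BPE and 17, 13.9 and 13.3 FPKM in BPF (-1.26, SE 0.25, adjusted p = 0.0106), and plantacyanin (ARPN), at 59.5, 45.4 and 56.4 FPKM in BPE and 26.1, 23.5 and 41.8 FPKM in BPF (-0.83, SE 0.21, adjusted p = 0.0212). The chaperone CCS (-0.67, SE 0.17, adjusted p = 0.0225) and its client superoxide dismutase CSD2 (-0.58, SE 0.15, adjusted p = 0.0231), also outside the naming rule, completed the lower members. Cytosolic CSD1 was at 445, 265 and 266 FPKM in BPE, 234, 204 and 248 FPKM in BPF and 606, 552 and 648 FPKM in control, and was not called between BPF and BPE (-0.47, SE 0.19, adjusted p = 0.0946). Leaving out BPE replicate 1, BPE replicate 2 or BPF replicate 2 in turn, 1, 1 and 0 copper genes were called higher and 0 lower. Without BPF replicate 3, 2 were called higher.

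Root hair genes were higher in BPF than in BPE. All 32 members of the list were tested, 22 were called higher in BPF and 0 lower, 31 had a positive difference, and the median was 1.47. The list summed to 1150.0, 756 and 1018 FPKM in control, 316, 322 and 476 FPKM in BPE and 1091, 1205 and 921 FPKM in BPF. Against control, 19 members were called lower in BPE and 0 were called for BPF, with medians of -1.49 and 0.10. RSL4, the factor that sets hair length, was at 4.33, 3.44 and 8.16 FPKM in BPE, 15.6, 12.1 and 12.4 FPKM in BPF and 18, 12.7 and 17.6 FPKM in control, a difference between BPF and BPE of 1.25, SE 0.25, adjusted p = 0.0113. RHD6, the factor above it, was not called. Among wall proteins, the leucine-rich repeat extensin LRX2 was at 2.96, 1.72 and 2.56 FPKM in BPE and 7.98, 9.44 and 7.12 FPKM in BPF (1.44, SE 0.29, adjusted p = 0.0107). The proline-rich protein PRP1 was at 6.37, 1.93 and 5.08 FPKM in BPE and 27.4, 30.5 and 18.1 FPKM in BPF (2.34, SE 0.50, adjusted p = 0.0123). The groups did not overlap for these genes, and BPE was below each control library of RSL4, LRX2 and PRP1. The 3 members with the highest levels did the same. They were the arabinogalactan protein AGP3 at 30.2, 28 and 46.9 FPKM in BPE and 124, 134 and 102 FPKM in BPF (1.78, SE 0.46, adjusted p = 0.0229), RHS13 at 25.2, 18 and 46.8 FPKM in BPE and 106, 117 and 107 FPKM in BPF (1.95, SE 0.50, adjusted p = 0.022), and the cellulose synthase-like CSLD3 at 46.7, 55.4 and 56.5 FPKM in BPE and 77.3, 106 and 97.6 FPKM in BPF (0.81, SE 0.26, adjusted p = 0.0474). In the fits without BPE replicate 1, BPE replicate 2 and BPF replicate 2, in that order, 2, 0 and 0 members were called higher.

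Part of the wall-loosening enzymes, water channels and peroxidases was called higher in BPF, and a smaller part lower. Of 33 xyloglucan endotransglucosylase/hydrolase (XTH) genes, which cut and rejoin xyloglucan, 26 were tested, 11 were called higher and 4 lower, with a median of 1.08. XTH17 was at 2.76, 1.82 and 5.87 FPKM in BPE and 45.2, 72.7 and 60.3 FPKM in BPF (3.83, SE 0.54, adjusted p = 0.00418), and was called in each of the 6 fits that left out a library. XTH18 was at 61.5, 109.7 and 148 FPKM in BPE and 305, 475 and 433 FPKM in BPF (1.98, SE 0.49, adjusted p = 0.0193), and its tandem neighbour XTH19 at 10.3, 10.1 and 15.4 FPKM in BPE and 76.9, 176 and 112 FPKM in BPF (3.19, SE 0.52, adjusted p = 0.00718). For these 3 genes each BPE library was below each control library, and their sequences are alike, so the reads may be split between them with error. XTH15 was at 7.14, 4.35 and 11.8 FPKM in BPE and 22.5, 31.5 and 45.2 FPKM in BPF (1.99, SE 0.35, adjusted p = 0.00827), with BPF above control at 9.48, 9.07 and 11.2 FPKM. The touch gene TCH4 was at 36, 44.1 and 48.7 FPKM in BPE and 67.1, 187 and 290.2 FPKM in BPF and was not called (1.83, SE 0.67, adjusted p = 0.0733). The 4 lower members, named after their values were seen, were XTH32 (-1.88, SE 0.45, adjusted p = 0.0181), XTH28 (-1.29, SE 0.34, adjusted p = 0.0254), XTH30 (-0.62, SE 0.20, adjusted p = 0.0448) and XTH27 (EXGT-A3, -0.57, SE 0.18, adjusted p = 0.0495). The call of XTH27 was lost in 13 of 16 alternative settings, with adjusted p up to 0.182. For XTH32 the libraries stood at 25, 33 and 27 FPKM in BPE and 14.2, 6.55 and 3.34 FPKM in BPF. Without BPE replicate 1, BPE replicate 2 or BPF replicate 2, 4, 4 and 1 XTH genes were called higher and 0 lower. The lower calls numbered 1 without BPE replicate 3 and 0 without BPF replicate 3.

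Of 21 tested expansins, 3 were called higher and 0 lower, among them the root hair expansins EXPA7 at 10.7, 12.9 and 21.5 FPKM in BPE and 42.5, 40.8 and 29.6 FPKM in BPF (1.31, SE 0.38, adjusted p = 0.0339) and EXPA18 at 9.72, 9.0 and 15.8 FPKM in BPE and 35.7, 39.2 and 28.5 FPKM in BPF (1.53, SE 0.43, adjusted p = 0.029). Of 29 tested aquaporins, 8 were called higher and 2 lower. The plasma membrane channel PIP2;4 was at 23.9, 18.1 and 30.3 FPKM in BPE, 75.7, 92 and 96.8 FPKM in BPF and 75.5, 68.6 and 64.9 FPKM in control, a difference between BPF and BPE of 1.85, SE 0.29, adjusted p = 0.00635. PIP1;5 was at 43.4, 52.9 and 57.4 FPKM in BPE and 104, 113 and 144 FPKM in BPF (1.21, SE 0.18, adjusted p = 0.00533). PIP2;4 and PIP1;5 were called in each of the 6 fits that left out a library, with PIP2;4 low in BPE and PIP1;5 above control in all BPF libraries. The boron channel NIP5;1 was at 29.3, 38.4 and 42.6 FPKM in BPE and 58.3, 73.9 and 66.1 FPKM in BPF (0.84, SE 0.16, adjusted p = 0.00988). The vacuolar channel TIP2 was at 505, 518 and 453 FPKM in BPE and 806, 790.0 and 923 FPKM in BPF (0.77, SE 0.22, adjusted p = 0.0313). The 2 lower members, outside the naming rule, were PIP2;5 at 31.2, 36.4 and 41.7 FPKM in BPE and 15.7, 16.5 and 6.51 FPKM in BPF (-1.52, SE 0.41, adjusted p = 0.0255) and RD28 at 182, 179 and 137 FPKM in BPE and 85.9, 42.9 and 82.6 FPKM in BPF (-1.28, SE 0.31, adjusted p = 0.0181). With BPE replicate 1, BPE replicate 2 or BPF replicate 2 left out, 2, 3 and 2 aquaporins were called higher and 0 expansins. Aquaporins called higher numbered 5 without BPE replicate 3 and 4 without BPF replicate 3, and expansins 1 without BPF replicate 1.

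Class III peroxidases, secreted enzymes that use hydrogen peroxide to cross-link or loosen walls, are the largest oxidation-reduction list of the wall. Of 69 genes 57 were tested, 19 were called higher in BPF and 6 lower, with a median of 0.30. Against control, 12 were called lower and 4 higher in BPE, and 0 lower and 1 higher in BPF. PRXCB (AT3G49120) stood at 145, 170.0 and 107 FPKM in control, 1069, 760.0 and 561 FPKM in BPE and 336, 244 and 311 FPKM in BPF, a difference between BPF and BPE of -1.39, SE 0.24, adjusted p = 0.00792. Both compounds thus stood above control for PRXCB, BPE more so. AT2G39040 went the other way, at 3.66, 3.17 and 3.65 FPKM in BPE and 12.6, 14 and 15.6 FPKM in BPF (1.74, SE 0.37, adjusted p = 0.0121), as did AT3G01190 at 82.6, 76 and 126 FPKM in BPE and 162, 258 and 232 FPKM in BPF (1.20, SE 0.25, adjusted p = 0.0121). The abundant PRXR1, at 755, 794 and 800.0 FPKM in BPE and 959.9, 1086 and 1086 FPKM in BPF, was not called (0.41, SE 0.19, adjusted p = 0.132). Leaving out BPE replicate 1, BPE replicate 2 or BPF replicate 2 in turn, 0 peroxidases were called higher and 1, 1 and 0 lower. Without BPF replicate 3, 10 were called higher. Of 5 tested NADPH oxidases, which make superoxide, RBOHB was called higher (0.76, SE 0.24, adjusted p = 0.043), with BPE replicate 3 inside the BPF range, and RBOHA lower (-0.72, SE 0.18, adjusted p = 0.0195). RBOHD was at 43.9, 51.4 and 59.7 FPKM in BPE and 76.8, 205 and 171 FPKM in BPF and was not called (1.42, SE 0.65, adjusted p = 0.136). Of 28 tested catalases and enzymes of the ascorbate-glutathione cycle, 1 was called, APX5 (0.86, SE 0.24, adjusted p = 0.0291), and the median was -0.13.

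Cell division genes were higher in BPF. All 28 members were tested and had a positive difference, 16 were called higher and 0 lower, and the median was 0.76. The summed level was 302, 305 and 352 FPKM in control, 208, 189 and 235 FPKM in BPE and 368, 402 and 359 FPKM in BPF. The mitotic cyclin CYCB2;2 was at 5.53, 4.8 and 6.86 FPKM in BPE and 11, 12.4 and 10.8 FPKM in BPF (0.89, SE 0.19, adjusted p = 0.0135), and CYCB1;3 at 4.64, 2.9 and 5.29 FPKM in BPE and 9.1, 12.2 and 10.5 FPKM in BPF (1.16, SE 0.26, adjusted p = 0.0154). The mitotic kinase CDKB2;1 was at 17.8, 15.7 and 20.3 FPKM in BPE, 34, 35.6 and 29.8 FPKM in BPF and 31.2, 31.3 and 31 FPKM in control (0.85, SE 0.20, adjusted p = 0.0154). For these 3 genes all BPE libraries lay below all BPF libraries. The cytokinesis syntaxin SYP111 (KNOLLE) was at 20.6, 20.8 and 25.5 FPKM in BPE and 41.4, 48.1 and 41.6 FPKM in BPF (0.94, SE 0.24, adjusted p = 0.0209), and the spindle checkpoint gene MAD2 at 7.81, 8.8 and 11.2 FPKM in BPE and 18.6, 21.1 and 20.0 FPKM in BPF (1.04, SE 0.23, adjusted p = 0.0134). TSO2, a subunit of ribonucleotide reductase, was not called, at 13.9, 11.5 and 13.8 FPKM in BPE and 18.9, 23 and 22.4 FPKM in BPF (0.67, SE 0.26, adjusted p = 0.0848). The root meristem markers did not move with these genes: their sums, given above, were lower in BPF than in BPE. In the fits without BPE replicate 1, BPE replicate 2 and BPF replicate 2, in that order, 0 division genes were called higher, while the list's median stayed between 0.70 and 0.86 without any 1 library.

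**Figure D4:**
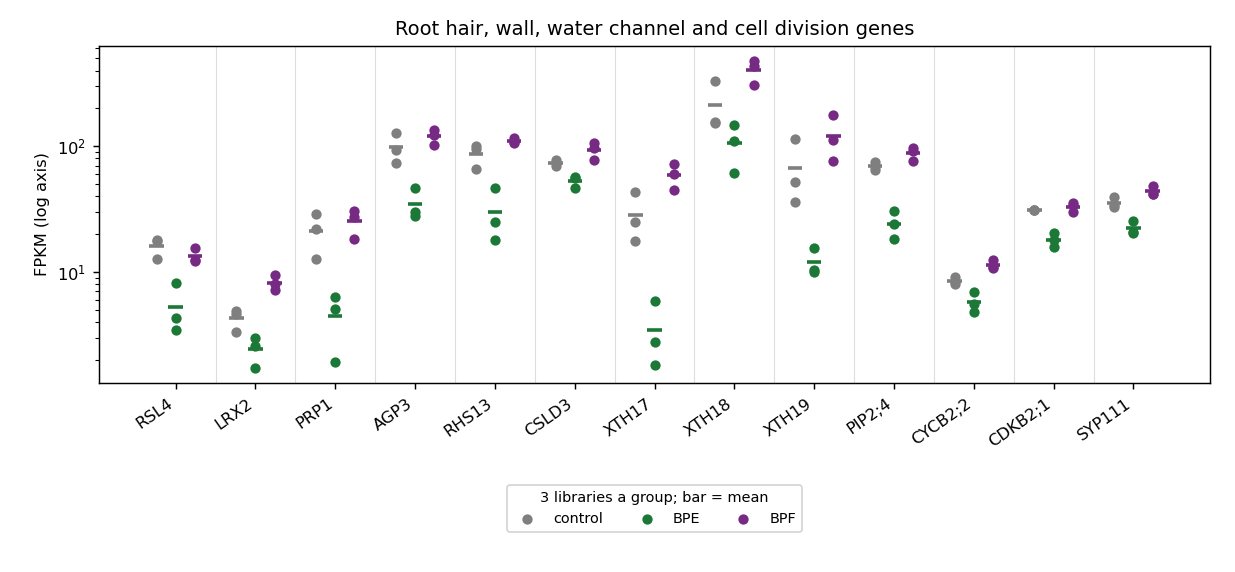
FPKM (log axis) of root hair, XTH, aquaporin and cell division genes in each control (grey), BPE (green) and BPF (purple) library; points are libraries and bars are means of 3. All 13 genes have the 3 BPE libraries below the 3 BPF libraries, by a small margin for the division genes on the right. The genes were picked from the named ones, many named for their difference, so selection favoured this separation.

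Abscisic acid genes that passed the test were lower in BPF than in BPE. Of 31 members 23 were tested, 11 were called lower in BPF and 0 higher, 21 had a negative difference, and the median was -0.97. Against control the medians were 0.92 in BPE, with 10 called higher, and -0.21 in BPF, with 0 called. LEA4-5, a late embryogenesis protein whose promoter, shown above, holds ACGTG on both strands, was at 97.1, 119.7 and 26.4 FPKM in BPE and 9.54, 3.8 and 5.49 FPKM in BPF, against 6.68, 10.4 and 4.29 FPKM in control, a difference between BPF and BPE of -3.32, SE 0.57, adjusted p = 0.00786. HAI1, a type 2C phosphatase that curbs the hormone's signal, was at 33.6, 42.1 and 11.4 FPKM in BPE and 4.59, 1.91 and 2.65 FPKM in BPF (-2.76, SE 0.46, adjusted p = 0.00758). The homeobox factor HB-7 was at 124, 149.7 and 68.4 FPKM in BPE and 37.6, 10.2 and 13.2 FPKM in BPF (-2.58, SE 0.55, adjusted p = 0.0127). For these 3 genes the groups did not overlap, and BPE replicate 3 was the lowest BPE library and still above each BPF library. The most abundant members were not called. The dehydrin COR47 was at 3188, 4051 and 3638 FPKM in BPE and 2893, 1861 and 1978 FPKM in BPF (-0.71, SE 0.28, adjusted p = 0.0885), LTI30 at 2544, 3469 and 3036 FPKM in BPE and 2122, 1359.6 and 1316 FPKM in BPF (-0.94, SE 0.40, adjusted p = 0.109), and ERD10 at 607, 876 and 790.5 FPKM in BPE and 747, 517 and 493 FPKM in BPF (-0.38, SE 0.36, adjusted p = 0.473). COR47 and LTI30 did not overlap between the groups, and ERD10 did. Without BPE replicate 1, BPE replicate 2 or BPF replicate 2, 2, 2 and 0 members were called lower.

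Detoxification genes moved in both directions. Of 240 cytochrome P450 genes 142 were tested, 15 were called higher in BPF and 20 lower, with a median of -0.04, near that of all genes. CYP706A7 was at 1.76, 3.69 and 0.595 FPKM in control, 37.8, 19.8 and 12.9 FPKM in BPE and 3.2, 1.51 and 2.89 FPKM in BPF (-2.70, SE 0.42, adjusted p = 0.00635), and was called in each fit that left out 1 library. CYP71B3 was at 22.1, 25.5 and 19 FPKM in BPE and 3.01, 1.87 and 4.15 FPKM in BPF (-2.56, SE 0.46, adjusted p = 0.00853), and CYP71B19 of the same family at 4.6, 3.47 and 2.45 FPKM in BPE and 0.506, 0.401 and 1.11 FPKM in BPF (-1.43, SE 0.25, adjusted p = 0.00787). The 3 genes were below 5 FPKM in each control and BPF library, and each BPE library stood above these. Of 64 UDP-glucosyltransferases, which link glucose to phenols and hormones, 48 were tested, 10 were called lower in BPF and 2 higher, with a median of -0.37. UGT87A2 was at 44.3, 41.3 and 29.2 FPKM in BPE and 13.4, 7.02 and 8.44 FPKM in BPF (-1.91, SE 0.33, adjusted p = 0.00788), UGT73C7 at 19.8, 22 and 10.1 FPKM in BPE and 5.21, 2.95 and 3.45 FPKM in BPF (-1.87, SE 0.39, adjusted p = 0.0118), and UGT74D1 at 52.4, 57.8 and 57.4 FPKM in BPE and 37.5, 29.8 and 35.8 FPKM in BPF (-0.69, SE 0.17, adjusted p = 0.0178). The 2 higher ones were UGT74B1, of glucosinolate synthesis, at 72.3, 54 and 79.8 FPKM in BPE and 115, 137 and 144 FPKM in BPF (0.94, SE 0.25, adjusted p = 0.0249), and, outside the naming rule, UGT76D1 (1.15, SE 0.29, adjusted p = 0.022). With BPE replicate 1, BPE replicate 2 or BPF replicate 2 left out, 3, 4 and 1 P450 genes and 1, 1 and 0 glucosyltransferases were called lower, and 4, 2 and 0 P450 genes higher. Without BPF replicate 3, 4 glucosyltransferases were called lower and 0 higher.

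Glutathione S-transferases were split evenly, with 38 of 41 tested, 5 called higher and 5 lower. GSTU16 was at 8.77, 10.8 and 7.06 FPKM in BPE and 3.95, 2.19 and 3.1 FPKM in BPF (-1.28, SE 0.21, adjusted p = 0.00758). ERD9 was at 160.0, 170.3 and 123 FPKM in BPE and 75.2, 30.6 and 11.5 FPKM in BPF (-2.27, SE 0.54, adjusted p = 0.0169), and here BPE overlapped control, at 238, 166 and 129 FPKM, while BPF lay below it. GSTU27 was the other way round, at 17, 17.6 and 27.1 FPKM in BPE and 41.2, 69.7 and 61.3 FPKM in BPF (1.44, SE 0.25, adjusted p = 0.00827). The abundant GSTU19 was at 1699.6, 1552 and 1180.0 FPKM in BPE and 1148, 986 and 1119 FPKM in BPF and was not called (-0.43, SE 0.21, adjusted p = 0.161). Many of these genes lie in tandem clusters of similar sequence, where reads can be split with error. Of 21 tested genes known to be induced by foreign chemicals, 4 were called lower in BPF and 1 higher, with a median of -0.37. Against control 7 of them were called higher in BPE and 2 in BPF. NIT4, a nitrilase that breaks down cyanoalanine, was at 6.83, 9.69 and 3.62 FPKM in BPE, 0.429, 0.476 and 0.15 FPKM in BPF and 0.482, 0.565 and 0.364 FPKM in control (-2.44, SE 0.32, adjusted p = 0.00254), and was called in each fit that left out 1 library. The sterol desaturase CYP710A1 was at 72.9, 68.4 and 32.9 FPKM in BPE and 22.4, 15 and 16.1 FPKM in BPF (-1.59, SE 0.40, adjusted p = 0.021), and the transcription factor NAC032 at 128, 192 and 107 FPKM in BPE and 82.1, 67.5 and 59.7 FPKM in BPF (-0.98, SE 0.23, adjusted p = 0.017). The 1 higher member, outside the naming rule, was the oxophytodienoate reductase OPR2 (0.60, SE 0.15, adjusted p = 0.0228). Alkenal reductase (AER), outside these lists, was at 192, 94.9 and 69.4 FPKM in BPE and 20.9, 8.52 and 14 FPKM in BPF (-2.90, SE 0.57, adjusted p = 0.0106). Leaving out BPE replicate 1, BPE replicate 2 or BPF replicate 2 in turn, 1, 1 and 0 of the transferases were called higher, 1, 1 and 0 lower, and 1, 1 and 1 of the chemical-inducible genes lower. Of the transferases, 3 were called lower without BPE replicate 3, 3 higher and 3 lower without BPF replicate 1, and 3 higher without BPF replicate 3, where 2 chemical-inducible genes were called lower.

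**Figure D5:**
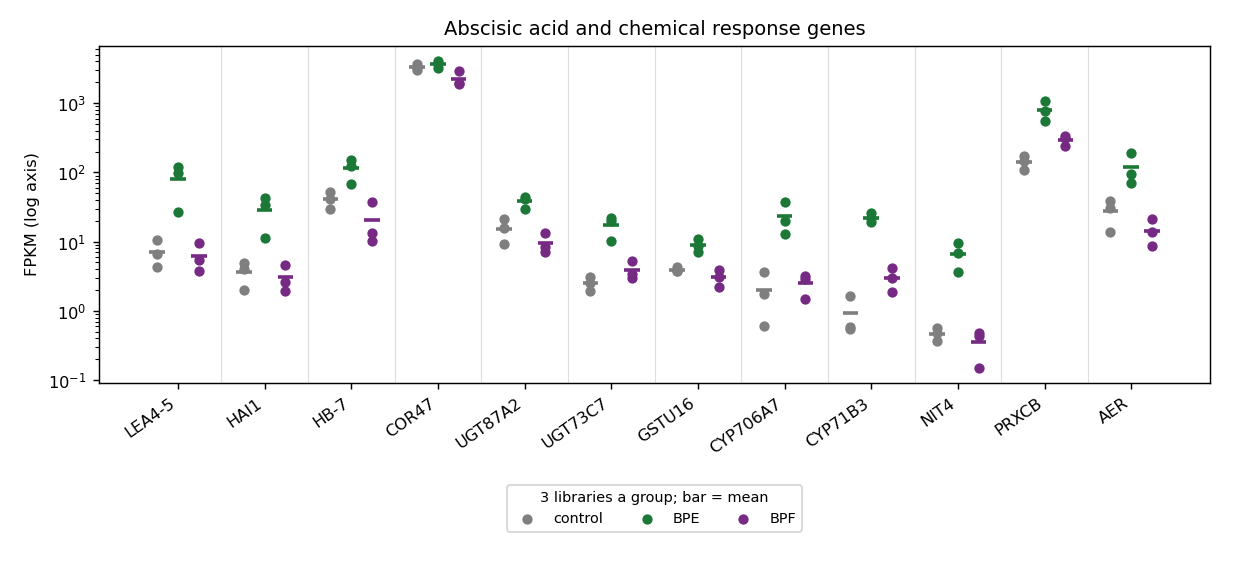
FPKM (log axis) of abscisic acid genes (left 4) and chemical response genes in each control (grey), BPE (green) and BPF (purple) library; points are libraries and bars are means of 3. In all 12 genes the 3 BPE libraries lie above the 3 BPF libraries, and for most BPF overlaps control. The genes were picked from the named ones, many named for their difference, so selection favoured this separation. ERD10, which overlapped, and GSTU27 and UGT74B1, which were higher in BPF, are not shown.

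Jasmonate and fast stress genes had differences that mostly did not pass the test. Of 26 tested jasmonate genes 0 were called higher in BPF and 1 lower, although the median difference was 1.39 and 13 did not overlap between the groups in the upward direction, which held for 21.2% of all tested genes. OPCL1, of jasmonate synthesis, was at 14.3, 17.3 and 29.2 FPKM in BPE and 52.3, 112 and 109.7 FPKM in BPF (2.10, SE 0.77, adjusted p = 0.0744). AOC3 was at 143, 210.2 and 307 FPKM in BPE and 408, 732 and 623 FPKM in BPF (1.44, SE 0.54, adjusted p = 0.0798), and the repressor JAZ2 (TIFY10B) at 92, 95.5 and 177 FPKM in BPE and 268, 658 and 723 FPKM in BPF (2.11, SE 0.94, adjusted p = 0.125). In these 3 genes BPF replicate 1 was the lowest BPF library and BPE replicate 3 the highest BPE library. JAR1, which joins jasmonate to isoleucine, was the 1 lower member, at 121, 183 and 167 FPKM in BPE and 117, 62.6 and 47.9 FPKM in BPF (-1.12, SE 0.36, adjusted p = 0.0474). The test pools the spread of all 6 groups, and the part of this in the missing calls was not tested. Where the fit held the 6 BPE and BPF libraries, 12 jasmonate genes were called higher, and where it also held the control libraries 15 were. Higher calls over all tested genes rose as well, from 1294 to 2115 and 2739 in these fits.

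Of 24 tested touch and fast stress genes, 2 were called higher and 0 lower, with a median of 1.00. The calmodulin-like TCH2 was at 23.8, 23.5 and 35.7 FPKM in BPE and 54.1, 169 and 186 FPKM in BPF (2.10, SE 0.47, adjusted p = 0.0145), and ERF13 at 1.9, 1.77 and 6.13 FPKM in BPE and 11.7, 50.2 and 47.5 FPKM in BPF (3.03, SE 0.94, adjusted p = 0.0423). WRKY40 was at 50.5, 54.6 and 101 FPKM in BPE and 171, 640.2 and 596 FPKM in BPF and was not called (2.60, SE 1.15, adjusted p = 0.123). BPF replicates 2 and 3 stood well above BPF replicate 1 in these 3 genes. In the fit of 6 libraries 8 members were called higher, where 2115 of all tested genes were, against 1294 in the main fit. In the fits without BPE replicate 1, BPE replicate 2 and BPF replicate 2, in that order, 0 were. Without BPF replicate 1 the count was 5.

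The summed level of green tissue transcripts overlapped between the groups, while most members were lower in BPF. The 34 photosynthesis genes summed to 222, 426 and 183 FPKM in control, 779, 905 and 737 FPKM in BPE and 586, 385 and 962 FPKM in BPF, none of the 34 was at 0 in all 9 libraries, and BPF replicate 3 was the highest library of the 9. Of the 32 tested, 28 had a negative difference and 4 a positive one, 2 were called lower in BPF and 0 higher, with a median of -0.55. The list's median level was 13.41, 16.99 and 13.41 FPKM in BPE and 8.32, 4.85 and 11.32 FPKM in BPF, and did not overlap. The libraries of 11 members did not overlap and were lower in BPF, which held for 23.2% of all tested genes. Against control, 28 were called higher in BPE and 1 in BPF. The called ones were PSAH2 at 6.72, 7.99 and 6.37 FPKM in BPE and 3.45, 1.65 and 3.42 FPKM in BPF (-1.10, SE 0.32, adjusted p = 0.0323), and PSAD-1 at 20.2, 29.4 and 19.7 FPKM in BPE and 11.3, 4.71 and 8.28 FPKM in BPF (-1.45, SE 0.47, adjusted p = 0.0497), both subunits of photosystem I. PSBR, of photosystem II, was at 159, 151 and 137 FPKM in BPE and 109, 82.3 and 186 FPKM in BPF and was not called (-0.32, SE 0.29, adjusted p = 0.456). In the fit of 6 libraries 6 members were called lower, where 1951 of all tested genes were, against 1814 in the main fit. Without BPE replicate 1, BPE replicate 2 or BPF replicate 2, 0 were called, and the median without BPF replicate 2 was -0.30. Without BPE replicate 3, 0 were called. The part of green tissue in the other gene groups was not tested.

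Among barrier and phenylpropanoid genes, 5 of 24 tested Casparian strip and suberin genes were called higher in BPF and 1 lower. The strip protein CASP1 was at 73.4, 81.4 and 109 FPKM in BPE and 151, 137 and 179 FPKM in BPF (0.83, SE 0.22, adjusted p = 0.0245), and the suberin hydroxylase CYP86A1 at 52.4, 70.2 and 63.3 FPKM in BPE and 117, 113 and 121 FPKM in BPF (0.92, SE 0.21, adjusted p = 0.0157). For both genes BPF lay above and BPE below the control libraries, which held 96.4, 91.8 and 101 FPKM of CYP86A1. The elongase KCS20 was the lower member (-0.72, SE 0.16, adjusted p = 0.0137). Of 20 lignin genes 2 were called higher and 2 lower. The monolignol dehydrogenase CAD4 (ATCAD4) was at 87.1, 63.8 and 81.4 FPKM in BPE and 139.6, 184 and 160.0 FPKM in BPF (1.05, SE 0.25, adjusted p = 0.0178), and its relative CAD5 at 411, 445 and 378 FPKM in BPE and 232, 144 and 111 FPKM in BPF (-1.40, SE 0.34, adjusted p = 0.0186). This pair thus moved in opposite directions. Of 12 tested flavonoid genes 1 was called, F3H, at 67.6, 65.1 and 84 FPKM in control, 24, 19.4 and 23.4 FPKM in BPE and 41.8, 50.4 and 31.4 FPKM in BPF (0.84, SE 0.21, adjusted p = 0.0191), with both compounds below control. With BPE replicate 1, BPE replicate 2 or BPF replicate 2 left out, 0 of the members of these 3 lists were called. Without BPF replicate 3, 2 suberin and strip genes and 3 flavonoid genes were called higher.

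Of 24 tested auxin genes 4 were called higher and 1 lower. IAA1, an early auxin response gene, was at 6.18, 4.49 and 8.17 FPKM in BPE and 15.9, 15.7 and 16.3 FPKM in BPF (1.25, SE 0.23, adjusted p = 0.00936), and IAA5 (1.31, SE 0.30, adjusted p = 0.0152) and IAA19 (0.98, SE 0.24, adjusted p = 0.0186) had the same direction, while the list's median was -0.07. Of 20 tested defence genes 2 were called higher and 1 lower. The salicylic acid synthesis gene EDS16 was at 7.04, 8.53 and 10.4 FPKM in BPE and 24.4, 49 and 38.9 FPKM in BPF (1.95, SE 0.51, adjusted p = 0.0228), and EDS5, a transporter gene of the MATE efflux family, at 23.2, 26.6 and 44.7 FPKM in BPE and 62.5, 99.8 and 81.8 FPKM in BPF (1.37, SE 0.39, adjusted p = 0.0313). MYB122, a regulator of indole glucosinolates, was lower (-1.15, SE 0.30, adjusted p = 0.0231). Of 15 hypoxia genes 2 were called higher, ERF71 at 3.63, 7.76 and 8.15 FPKM in BPE and 15.6, 40.7 and 16.7 FPKM in BPF (1.68, SE 0.48, adjusted p = 0.0311) and the sucrose synthase SUS4 at 2.7, 14.2 and 22.2 FPKM in BPE and 28.9, 89.3 and 33.2 FPKM in BPF (2.05, SE 0.61, adjusted p = 0.0364), with BPF replicate 2 the highest library in both. The ethylene list of 19 tested genes had 1 lower call, the kinase CTR1 (-0.44, SE 0.14, adjusted p = 0.0475), and the chlorophyll list of 11 had 1, CH1 (-1.12, SE 0.35, adjusted p = 0.043). Of 15 tested cytokinin genes and 14 tested heat genes, limma called 0 in the fit given here. At an unadjusted p below 0.05, 3 cytokinin and 0 heat genes passed, beside 6713 of all 19484 tested genes. Leaving out BPE replicate 1, BPE replicate 2 or BPF replicate 2 in turn, 1, 1 and 0 auxin genes were called higher, and 0 of the defence, hypoxia, ethylene, chlorophyll, cytokinin and heat genes were called. Without BPF replicate 3, 2 auxin and 0 defence genes were called higher, and without BPF replicate 1, 3 auxin genes lower.

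The largest differences between BPF and BPE lay partly outside the lists. Lower in BPF, AT1G26390, a berberine bridge enzyme-like oxidase, was at 30.9, 20.0 and 8.22 FPKM in BPE and 0.421, 0.701 and 0.766 FPKM in BPF (-3.50, SE 0.63, adjusted p = 0.00855). AT5G43570, a protease inhibitor of the potato type I, was at 80.4, 49.8 and 37.4 FPKM in BPE and 5.23, 1.8 and 5.63 FPKM in BPF (-3.48, SE 0.69, adjusted p = 0.0107). Both were below 3 FPKM in each control library. SQE6, a squalene monooxygenase, was at 28.4, 24.3 and 17.1 FPKM in BPE and 2.91, 1.37 and 3.17 FPKM in BPF (-2.82, SE 0.48, adjusted p = 0.00777), and the phenolic malonyltransferase PMAT1 at 78.3, 133 and 57.6 FPKM in BPE and 33.4, 4.05 and 3.32 FPKM in BPF (-3.23, SE 0.82, adjusted p = 0.0212). CIB1 was at 68, 56.7 and 41.3 FPKM in control, 39.4, 64.5 and 48.5 FPKM in BPE and 23.5, 2.02 and 1.03 FPKM in BPF (-3.25, SE 0.83, adjusted p = 0.0217). Here BPE overlapped control and BPF was low, but the locus overlaps AT4G34540 on the same strand, so the split of reads is uncertain. AT5G54300, of a family with unknown function, was at 329, 302 and 215 FPKM in BPE and 68.8, 11.7 and 17 FPKM in BPF (-3.47, SE 0.75, adjusted p = 0.0134) and overlaps loci on the other strand. The other named falls, AT5G13370 (-2.76) and AT1G14890 (-2.75), encode a GH3 family protein and a pectin methylesterase inhibitor.

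Among the largest rises outside the phosphate response, the CBF-related factor DDF1 was at 2.88, 7.0 and 11.4 FPKM in BPE and 53.3, 208 and 262 FPKM in BPF (4.31, SE 1.32, adjusted p = 0.0398). The methyltransferase-like AT3G44870 was at 5.93, 3.91 and 28.2 FPKM in BPE and 110.0, 228 and 154 FPKM in BPF (3.98, SE 1.29, adjusted p = 0.0488), and AT5G38700 at 2.33, 2.81 and 4.74 FPKM in BPE and 20.8, 71.1 and 80.4 FPKM in BPF (3.59, SE 0.78, adjusted p = 0.0134). For these 3 genes each BPF library lay above each control library. AT5G04120, of the phosphoglycerate mutase family, was at 183, 91.3 and 199.5 FPKM in control, 4.47, 2.22 and 4.94 FPKM in BPE and 67, 97.9 and 25.8 FPKM in BPF (3.58, SE 0.84, adjusted p = 0.0169), with BPE far below control. AT2G04460, uncharacterized, was at 0.416, 0.881 and 7.32 FPKM in BPE and 30.8, 43 and 49 FPKM in BPF (3.87, SE 1.07, adjusted p = 0.0281). Of the 24 genes with the largest differences, XTH17 and AT4G20970 were called in each fit that left out 1 library.

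Genes called in every one of the 6 fits that left out a library numbered 50, of which 19 were higher in BPF and 31 lower. They are all 50 genes called without BPF replicate 2, so that fit alone set the number and the other fits removed none. Those named here were chosen after their values were seen unless given above. Lower in BPF were AT4G20970, a basic helix-loop-helix factor, at 11.7, 7.19 and 5.1 FPKM in BPE and 0.648, 0.0799 and 0 FPKM in BPF (-2.83, SE 0.32, adjusted p = 0.00254), and the factor MYB121 at 7.87, 14.1 and 3.97 FPKM in BPE and 0.455, 0.337 and 0.486 FPKM in BPF (-2.62, SE 0.34, adjusted p = 0.00254). Other factors among the 31 were NAC6, which promotes leaf senescence, at 52.4, 63.5 and 55.7 FPKM in BPE and 14.4, 6.25 and 10.5 FPKM in BPF (-2.42, SE 0.37, adjusted p = 0.00622), and WRKY8 at 14.9, 7.68 and 6.4 FPKM in BPE and 1.61, 1.12 and 1.57 FPKM in BPF (-2.06, SE 0.27, adjusted p = 0.00254). For these 4 genes each BPE library was several times above each BPF library. The berberine bridge enzyme-like genes AT1G26380 (-2.73), AT1G26410 (-1.97) and AT1G26420 (-1.94) belong to the 31 as well, and lie in tandem with AT1G26390. AT1G26380 was at 0.596, 1.06 and 0.586 FPKM in control, 17.6, 20.4 and 16.2 FPKM in BPE and 1.48, 1.89 and 2.26 FPKM in BPF. The transporter AT1G71140, of the MATE efflux family, was at 13.9, 9.75 and 6.38 FPKM in BPE and 1.16, 0.415 and 1.19 FPKM in BPF (-2.49, SE 0.31, adjusted p = 0.00254), and AT5G17700 of the same family at 38.7, 43.6 and 22.2 FPKM in BPE and 8.57, 4.46 and 3.73 FPKM in BPF (-2.46, SE 0.36, adjusted p = 0.00494). BPF lay below control for AT5G17700, which held 41.6, 34.2 and 16.7 FPKM there, and near control for AT1G71140.

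The 19 higher genes held XTH17, PIP2;4 and PIP1;5, given above. GPAT6, an acyltransferase of cutin synthesis, was at 9.84, 11.1 and 11.4 FPKM in BPE and 23.6, 21.5 and 31.7 FPKM in BPF (1.16, SE 0.15, adjusted p = 0.00254), and the acyl-CoA synthetase LACS2 at 10.1, 11.3 and 9.67 FPKM in BPE and 25.1, 28.1 and 24.1 FPKM in BPF (1.23, SE 0.19, adjusted p = 0.00635). The proton pump HA4 was at 2.27, 3.18 and 3.2 FPKM in BPE and 6.49, 8.74 and 7.67 FPKM in BPF (1.15, SE 0.18, adjusted p = 0.00635). For these genes the spread within a group was small beside the gap between groups. Of the UMAMIT family, amino acid exporters among its known members, UMAMIT17 was at 4.14, 6.57 and 4.27 FPKM in BPE and 18.4, 14.7 and 29.6 FPKM in BPF (1.83, SE 0.31, adjusted p = 0.00777), UMAMIT27 at 4.75, 5.44 and 5.89 FPKM in BPE and 10.0, 15.2 and 12 FPKM in BPF (1.06, SE 0.16, adjusted p = 0.00533), and UMAMIT19 at 0, 0.14 and 0.183 FPKM in BPE and 3.44, 4.19 and 2.34 FPKM in BPF (1.95, SE 0.30, adjusted p = 0.00622). The locus of MIR408, whose microRNA is made when copper is short, was at 0.60, 0.74 and 0.80 FPKM in control, 0.61, 0.95 and 1.66 FPKM in BPE and 5.61, 4.07 and 3.16 FPKM in BPF (1.35, SE 0.19, adjusted p = 0.00366). Each BPF library of MIR408 was above each BPE and control library.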

How the data were processed

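Roots of 18 libraries (6 groups of 3) were sequenced, and groups were taken from the sample titles. Per the labels' protocols, libraries were strand-specific and made from RNA with an integrity number of at least 7.0. Per the file headers, the authors gave 1 FPKM value per gene and library. HISAT2 2.0.4, StringTie 1.3.0, edgeR and the build TAIR10 are named in the submitters' processing notes, with no settings. The strand setting of the counting is not given in the sources used here.

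Fragment totals were recovered from the steps between low FPKM values, of which 56.2% to 63.1% lay within 0.02 of a whole number of fragments, against 4.0% if spread evenly. They served as a measure of depth, and a count model was not fitted. They speak to counting error alone, since reads carry no molecular identifiers.

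The 19484 genes that reached a mean of 1 FPKM were fitted as log2(FPKM + 1) with limma 3.58.1 (R 4.3.3), 1 coefficient per group over all 18 libraries and an intensity trend in the variance. P-values are two-sided and adjusted by Benjamini-Hochberg over 19484 genes. The pair BPF and BPE is 1 of several pairs in the series, and p-values were not adjusted over pairs. The half-width of a gene's 95% interval was 0.40 on the log2 scale in the median. In simulated data 200 of 19484 genes were changed. The fit found 67% of those changed by 1 and 93% of those changed by 2 on the log2 scale. Of its 169 calls there, 9 were false. The real libraries gave 3108 calls, and 50 without BPF replicate 2. The simulation drew each gene and library independently, so it held no deviations that a library shares across many genes. It therefore does not give the power or error rate of the calls here.

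The comparison, its gene lists and the naming rule were chosen with earlier results of these data known. The rule named the 12 largest rises and 12 largest falls among called genes whose libraries did not overlap and whose higher group had a mean of at least 5 FPKM, and for each list the 3 members with the smallest adjusted p and the 3 with the highest mean FPKM. The texts give a part of these. Of the list names, 36 were not matched by both locus and symbol and were dropped, although some of their loci were measured. PECP1 of the phosphate list was written at AT1G17710 (PEPC1 here), and FOX1 of the defence list at AT1G26380. Both loci were called, and the list counts leave them out. FIT, BTSL1, BTSL2, IMA1, IMA2 and IMA3 are likewise missing from the iron counts, and JOX1, JOX2, JOX3 and JOX4 from the jasmonate counts.

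Symbols, gene positions and promoters came from RefSeq's TAIR10.1, in which 32835 of the 33602 loci (97.7%) were matched. Among the genes named, AT5G54300, AT5G04120, SYP111, UGT74D1, F3H, XTH15, TCH2, PSAH2, PSBR, EDS5, CSD1, RBOHA, RBOHB, MAD2, CDKB2;1, EXPA7, EXPA18, CASP1, APR1, APR3, CH1, APX5, HA4, IAA5, the MIR408 locus, OCT1, PHR1, UMAMIT19 and WRKY40 overlap a gene on the other strand by at least 1 base, AT3G44870, CIB1, ERD9 and TSO2 one on the same strand, and OPR2 both, so their values are uncertain. Alternatives were quantile normalization, median scaling, no intensity trend, no filter, a minimum mean of 5 FPKM, log2(FPKM + 0.1), the 6 libraries alone, the replicate number as a block, a 2-fold threshold and each of the 6 libraries left out. A fit of the control, BPE and BPF libraries alone was chosen after seeing the data.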

Additional observations from a re-analysis of the deposited data

How the results depend on the processing

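The 3108 calls were 3264 with quantile normalization, 3528 with median scaling (1778 higher, 1750 lower), 3041 with no intensity trend, 2488 with no filter, 2694 at a minimum mean of 5 FPKM and 3099 with log2(FPKM + 0.1), all within 1.5 times. The sign of all 3108 was kept in every setting that tested them (2520 were tested at a minimum of 5 FPKM). The settings reuse the libraries by which these genes were selected, so the kept sign does not test the calls. A 2-fold threshold left 1153 (623 higher, 530 lower). The 6 libraries alone gave 4066 (2115 higher), and the control, BPE and BPF libraries alone, a setting chosen after seeing the data, 5328 (2739 higher); the cause was not tested. Leaving out 1 of the 6 libraries gave 50 to 2797 calls, 19 to 1109 higher and 31 to 1688 lower, lowest without BPF replicate 2. With the replicate number as a block the count was 3415, and 2492 (1386 higher, 1106 lower) in the 6 libraries alone. Same-numbered BPE and BPF libraries deviated from their group means with correlations of 0.102, -0.138 and -0.129 across genes. Differently numbered ones gave -0.219 to 0.334. The labels do not say whether a replicate number marks a shared plate or batch, so whether the libraries are paired is not known. Of 160 genes followed one by one, 0 reversed in any setting, with the same limit. Calls lost among them numbered 93 without BPE replicate 1, 90 without BPE replicate 2 and 112 without BPF replicate 2. PHR1 and XTH27 were not alone in losing their call often. Calls were lost in 12 of 16 settings for CTR1, 11 of 15 for COPT2 and 10 of 16 for AT3G44870 and PSAD-1. They were lost in 9 of 16 for HRS1 and RBOHB, 8 of 16 for CSLD3, XTH30, JAR1 and TIP2, and 8 of 15 for CH1. Genes below 1 FPKM rest on few fragments.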
